A study of Mus musculus with 8 samples.

Results

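The semaphorins, plexins and neuropilins are 3 connected families of guidance molecules, and 31 of their genes were measured in the embryonic mouse neocortex. They were found by gene symbol: every gene probe whose RefSeq accession belongs to a class 3 to 7 semaphorin, a plexin or a neuropilin was taken, which gave 39 of the 39429 gene probes. The 31 genes comprise 20 semaphorins, 9 plexins and 2 neuropilins, and they are all the genes of these names in the RefSeq table. RNA came from ICR mouse embryos at day 16 (E16). Their neocortex had been separated under manual dissection into a germinal part, the ventricular plus subventricular zone (V/SVZ) that holds dividing progenitors, and the cortical plate (CP) in which young neurons come to rest. There were 4 samples of each tissue, each hybridised to its own 1-colour Agilent array, and the labels name no other treatment or genotype. The labels do not state whether the samples of either tissue were taken from different animals. The p-values therefore reflect the spread among these samples alone, which may be technical. The comparison asks how ligands and receptors of semaphorin signalling divide between the zone where neurons are born and the zone where they settle.

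Semaphorins are secreted or membrane-bound ligands that share a sema domain and steer axons, dendrites and migrating cells, most often by repulsion. Plexins are the receptors that carry the signal into the cell, where they act on small GTPases and the cytoskeleton, and neuropilins are coreceptors with short cytoplasmic tails that bind most secreted semaphorins and pass them to A-type plexins. In the developing cortex these molecules are known for orienting apical dendrites, guiding callosal and corticofugal axons, and positioning migrating neurons and interneurons.

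The dissection carried the markers its labels call for. All 10 radial glia markers and all 6 intermediate progenitor markers were higher in V/SVZ, and all 10 markers of plate neurons were higher in CP. Among them Eomes, a factor of intermediate progenitors, had a log2 difference (V/SVZ minus CP throughout) of 8.39 and the glycolytic enzyme gene Aldoc, a radial glia marker, one of 7.32. Pax6, a transcription factor gene of the same cells, reached no CP array well above background on its brighter probe, which was at least 105-fold higher in V/SVZ. Its dimmer probe gave a log2 difference of 3.71, and the mean of both 5.48. In CP, Bcl11b (-2.79) and Tbr1 (-1.53), factors of deep-layer neurons, were higher, and the neurofilament gene Nefl, not well above background on any V/SVZ array, was at least 65.2-fold higher. With background corrected by normexp instead, both bounded values came out lower, at log2 differences of 5.27 for the brighter Pax6 probe and -4.90 for Nefl. Other cell types differed less evenly. Of 8 microglia markers 6 were higher in V/SVZ (P2ry12, 2.39), with a summed signal of 32552 to 43122 intensity units on the V/SVZ arrays against 29225 to 34312 on the CP arrays. Most of the CP sum came from the brighter Itgam probe, which was called towards CP (-0.81) and read 22752 to 27886 units there. The dimmer Itgam probe was called towards V/SVZ (0.21), and the mean of both towards CP (-0.30). Aif1 was not called (0.45). Of 10 endothelial markers 3 were higher in V/SVZ (Slc2a1, 0.98) and 1 in CP, with summed signals of 28199 to 31104 and 20494 to 22528, of which Slc2a1 alone gave 10524 to 12515 and 5487 to 5857. The remaining lists were pericytes (2 of 6 higher in V/SVZ; Pdgfrb, 0.93), oligodendrocyte precursors (2 of 6 higher in V/SVZ; Olig2, 1.22), interneurons (4 of 8 higher in each tissue; Gad1, -0.93), erythroid cells (3 of 3 tested higher in V/SVZ; Hbb-bs, 0.51) and meningeal fibroblasts (1 of 7 tested higher in V/SVZ and 3 in CP). Among the last, Lum was not well above background on any V/SVZ array and at least 4.24-fold higher in CP (after normexp a log2 difference of -1.87). The part of these cells in the values below was not tested, and in bulk tissue fewer cells of a type and less RNA per cell cannot be told apart. Slide 1 carried the V/SVZ arrays and slide 2 the CP arrays, so slide and tissue cannot be told apart. Spike-in RNAs added at labelling differed between the slides by -0.05 to 0.16 on the log2 scale.

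Of the 31 genes, 29 could be tested, and most differed between the tissues. By limma with Benjamini-Hochberg adjustment over all 23860 probes tested and a threshold of 0.05, 9 were called towards V/SVZ, 17 towards CP, and 3 did not pass. Together the 26 are 89.7% of the 29, where 79.5% of all 19232 genes tested passed, 35.0% of them towards V/SVZ and 44.6% towards CP. At 2-fold or more, 6 members were higher in V/SVZ and 11 in CP, 58.6% of those tested, against 30.2% of all genes. The median absolute log2 difference was 1.33 in the members and 0.56 over all genes. In 23 of the 29 members (79.3%) the ranges of the tissues did not overlap, and the same held in 75.2% of all genes. Where a gene has several probes, its brightest tested probe stands for it. All but 1 of the 29 were well above background on all 8 arrays, the exception being Sema3g. Sema3d, a secreted semaphorin, stayed near background on all 8 arrays, none reading well above it, with signals of 7.90 to 41.5 units in V/SVZ and 10.2 to 30.3 in CP. Plxnb3, a B-type plexin, was well above background on 2 V/SVZ arrays and 1 CP array, and its spot on V/SVZ array 3, which the scanner software marked as non-uniform, was left out. These 2 genes were not tested. Signals are given below as processed signals scaled to an average array, on which the 75th percentile of all probes is 2335 units. Signals of different probes cannot be set against each other.

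**Figure D1:**
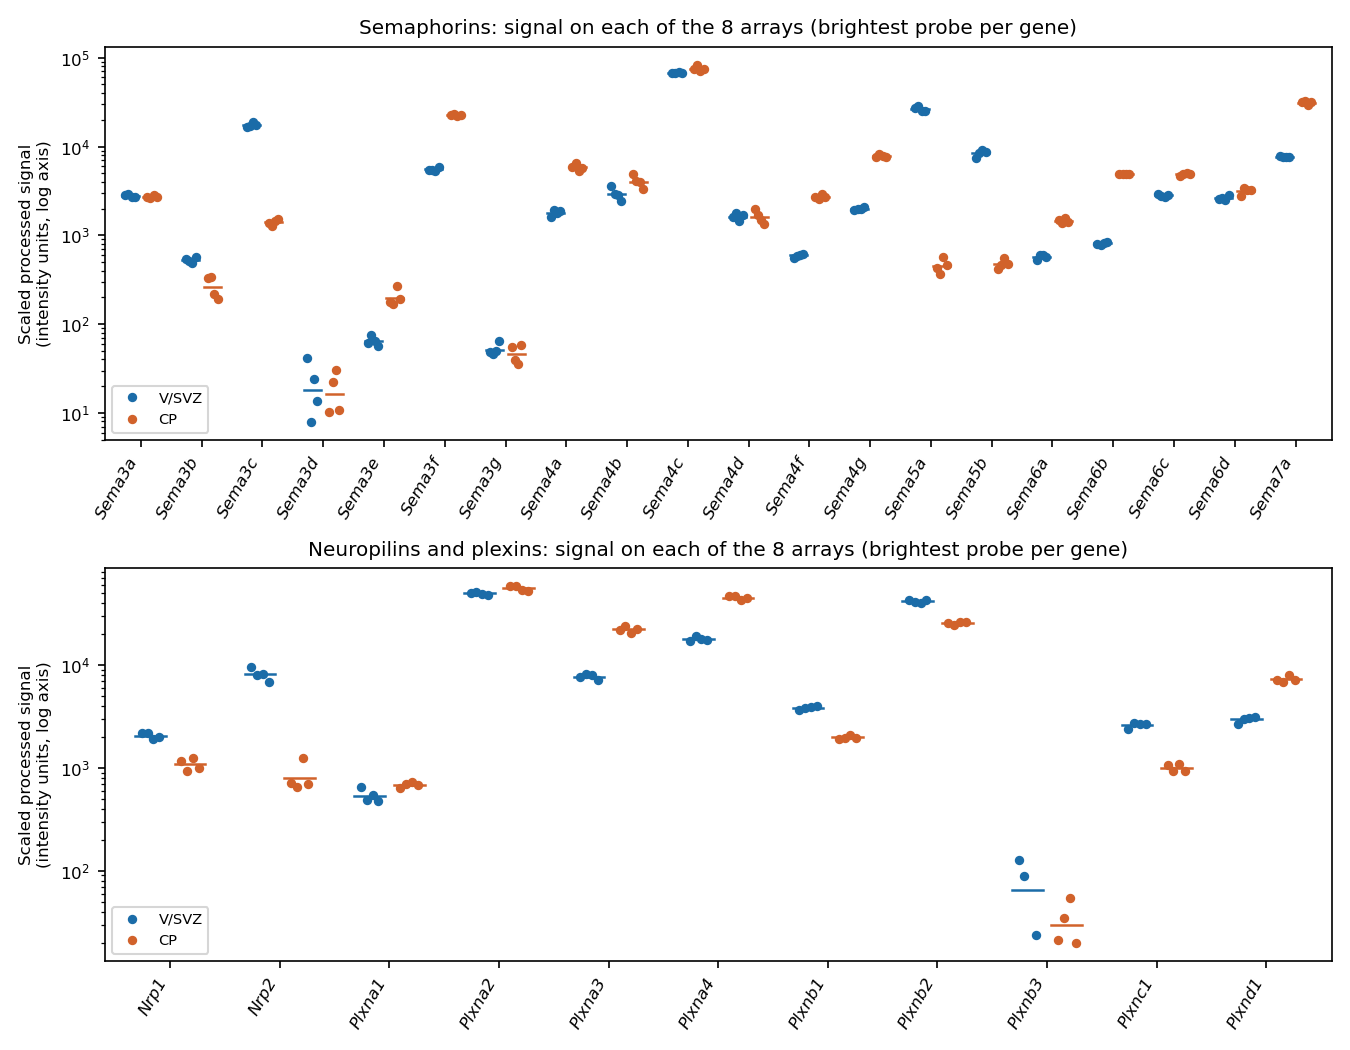
Scaled processed signal (intensity units, log axis) of the brightest probe of each of the 31 genes, 1 point per array, with V/SVZ in blue and CP in orange and a short line at the geometric mean. Sema5a, Sema5b, Sema3c and Nrp2 show the widest gaps towards V/SVZ and Sema6b, Sema4f, Sema3f and Sema7a towards CP, while Sema3d and Plxnb3 lie near background. Heights of different genes are not comparable.

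The class 5 semaphorins, membrane-bound ligands with thrombospondin repeats, showed the widest differences of the 3 families. Sema5a had signals of 27176, 28420, 24813 and 25439 on the V/SVZ arrays and 424, 370.3, 577 and 461 on the CP arrays. Every V/SVZ array lay far above every CP array. The log2 difference was 5.87 ± 0.13 SE (n = 4 per tissue, limma adjusted p = 3.54e-09), which is 58.5-fold with a 95% interval of 47.6 to 71.8. Sema5b, its paralogue, had signals of 7352, 8422, 9116 and 8653 in V/SVZ and 417, 461, 562 and 480 in CP. It was 17.5-fold higher in V/SVZ (log2 difference 4.13 ± 0.10 SE, limma adjusted p = 6.84e-09), and its second probe gave 18.5-fold. The spread among CP arrays, a coefficient of variation of 19.1% for Sema5a and 12.7% for Sema5b, was small beside these differences.

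The secreted class 3 semaphorins divided between the tissues. Sema3c, a ligand of both neuropilins known to attract callosal axons, had signals of 16632, 16913, 18894 and 17694 in V/SVZ and 1362, 1261, 1432 and 1537 in CP. The tissues did not overlap, and the log2 difference was 3.65 ± 0.07 SE (12.6-fold higher in V/SVZ, limma adjusted p = 2.01e-09). Its second probe gave 3.83, which normexp background correction lowered to 2.81. Sema3b, another secreted member, had signals of 547, 515, 490.0 and 564 in V/SVZ and 331, 336, 219.7 and 190.5 in CP. It was 2.02-fold higher in V/SVZ (1.02 ± 0.19 SE, adjusted p = 0.00133), and the CP arrays fell into a brighter pair and a dimmer pair, with a coefficient of variation of 27.8%.

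Sema3f and Sema3e lay on the other side. Sema3f, which acts through neuropilin-2, had signals of 5418, 5460.2, 5340.1 and 5868 in V/SVZ and 22464, 23165, 22298 and 22611 in CP, so that each CP array was well above each V/SVZ array. CP exceeded V/SVZ by 4.10-fold (log2 difference -2.04 ± 0.04 SE, limma adjusted p = 2.12e-09). Sema3e, which binds plexin D1 without a neuropilin, had low signals of 61.4, 75.4, 64.5 and 56.0 in V/SVZ and 178.8, 166.8, 271 and 194 in CP. The tissues did not overlap, with a log2 difference of -1.64 ± 0.16 SE (3.11-fold higher in CP, adjusted p = 2.67e-05). After normexp it was -0.97, or 1.96-fold.

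Sema3a and Sema3g did not pass the threshold. Sema3a, the collapsin that repels cortical axons and attracts apical dendrites, had signals of 2823, 2901, 2714 and 2702 in V/SVZ and 2709, 2620.0, 2818 and 2697 in CP on its brighter probe. The ranges overlapped, and the interval of the log2 difference (-0.05 to 0.13, adjusted p = 0.389) leaves room for only a small difference in either direction on this probe. Its dimmer probe was called towards V/SVZ at 0.33 ± 0.05 SE (adjusted p = 0.000254) but not after normexp (0.07), and the mean of both probes was called at 0.18 (adjusted p = 0.00196). Sema3g, known from arterial endothelium, was dim, at 45.7 to 64.2 units in V/SVZ and 35.9 to 58.8 in CP, with 2 of 4 CP arrays well above background. Its difference was 0.15 with a wide interval of -0.28 to 0.58 (adjusted p = 0.482).

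The class 3 genes lie partly in clusters, and neighbours did not go the same way. On chromosome 5 Sema3d and Sema3a are adjacent protein-coding genes, Sema3e follows after 3 others and Sema3c after 15 more. In that row Sema3d was not detected, Sema3a was not called, Sema3e was higher in CP and Sema3c higher in V/SVZ. On chromosome 9 Sema3b and Sema3f have 3 protein-coding genes between them and were higher in opposite tissues.

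Of the 6 class 4 semaphorins, membrane-bound ligands of mainly B-type plexins, 5 were higher in CP and none of the 6 was called towards V/SVZ. Sema4f had signals of 559, 592, 606 and 615 in V/SVZ and 2671, 2580.4, 2891 and 2679 in CP. CP exceeded V/SVZ by 4.56-fold (log2 difference -2.19 ± 0.05 SE, limma adjusted p = 4.03e-09), with no overlap. Sema4g, a ligand of plexin B2, was at 1912 to 2108 units in V/SVZ and 7565 to 8162 in CP, 3.93-fold higher in CP. Sema4a, known from immune cells and the retina, was at 1619 to 1940.4 in V/SVZ and 5355 to 6574 in CP, 3.26-fold higher. The other class 4 genes differed little. Sema4b was 1.38-fold higher in CP (-0.46 ± 0.15 SE, adjusted p = 0.0197), with overlapping ranges of 2415 to 3549 and 3284 to 4893 units. Sema4c, a ligand of plexin B2, was 1.12-fold higher in CP (-0.17 ± 0.05 SE, adjusted p = 0.0169), and -0.24 with spike-in scaling. Its call was lost after median scaling (-0.08) and quantile normalization (-0.10). Sema4d, a ligand of plexin B1, did not pass (0.01, interval -0.29 to 0.31, adjusted p = 0.948), with signals of 1435 to 1768 in V/SVZ and 1346 to 1998 in CP.

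All 4 class 6 semaphorins, membrane-bound ligands of A-type plexins, were higher in CP on their brightest probe. Sema6b had signals of 791, 787, 820.1 and 842 in V/SVZ and 4948, 4926, 4923 and 4898 in CP. The CP arrays agreed closely, and the log2 difference of -2.60 ± 0.03 SE (6.08-fold, limma adjusted p = 4.38e-10) was the largest towards CP in the 3 families. Sema6a was at 527 to 608 units in V/SVZ and 1365 to 1551 in CP (2.51-fold), and Sema6c at 2696 to 2951 and 4677 to 4969 (1.73-fold). Sema6d, a ligand of plexin A1, had 2 probes of the same accession called in opposite directions. The brighter one was at 2475 to 2880 units in V/SVZ and 2785 to 3441 in CP, overlapping slightly (-0.26 ± 0.08 SE, adjusted p = 0.0129; not called after median scaling, -0.17). The dimmer one was at 130.1 to 169.5 and 58.2 to 90.3 (1.02 ± 0.16 SE, adjusted p = 0.000508), with 3 of 4 CP arrays well above background, and the mean of both was called towards V/SVZ at 0.38 (adjusted p = 0.00467). Sema6d thus has no settled direction here. The single class 7 gene, Sema7a, whose product is held to the membrane by a lipid anchor and promotes axon growth, had signals of 7824, 7553, 7562 and 7570 in V/SVZ and 31355, 32210, 29409 and 31902 in CP. It was 4.09-fold higher in CP (-2.03 ± 0.04 SE, limma adjusted p = 2.05e-09).

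**Figure D2:**
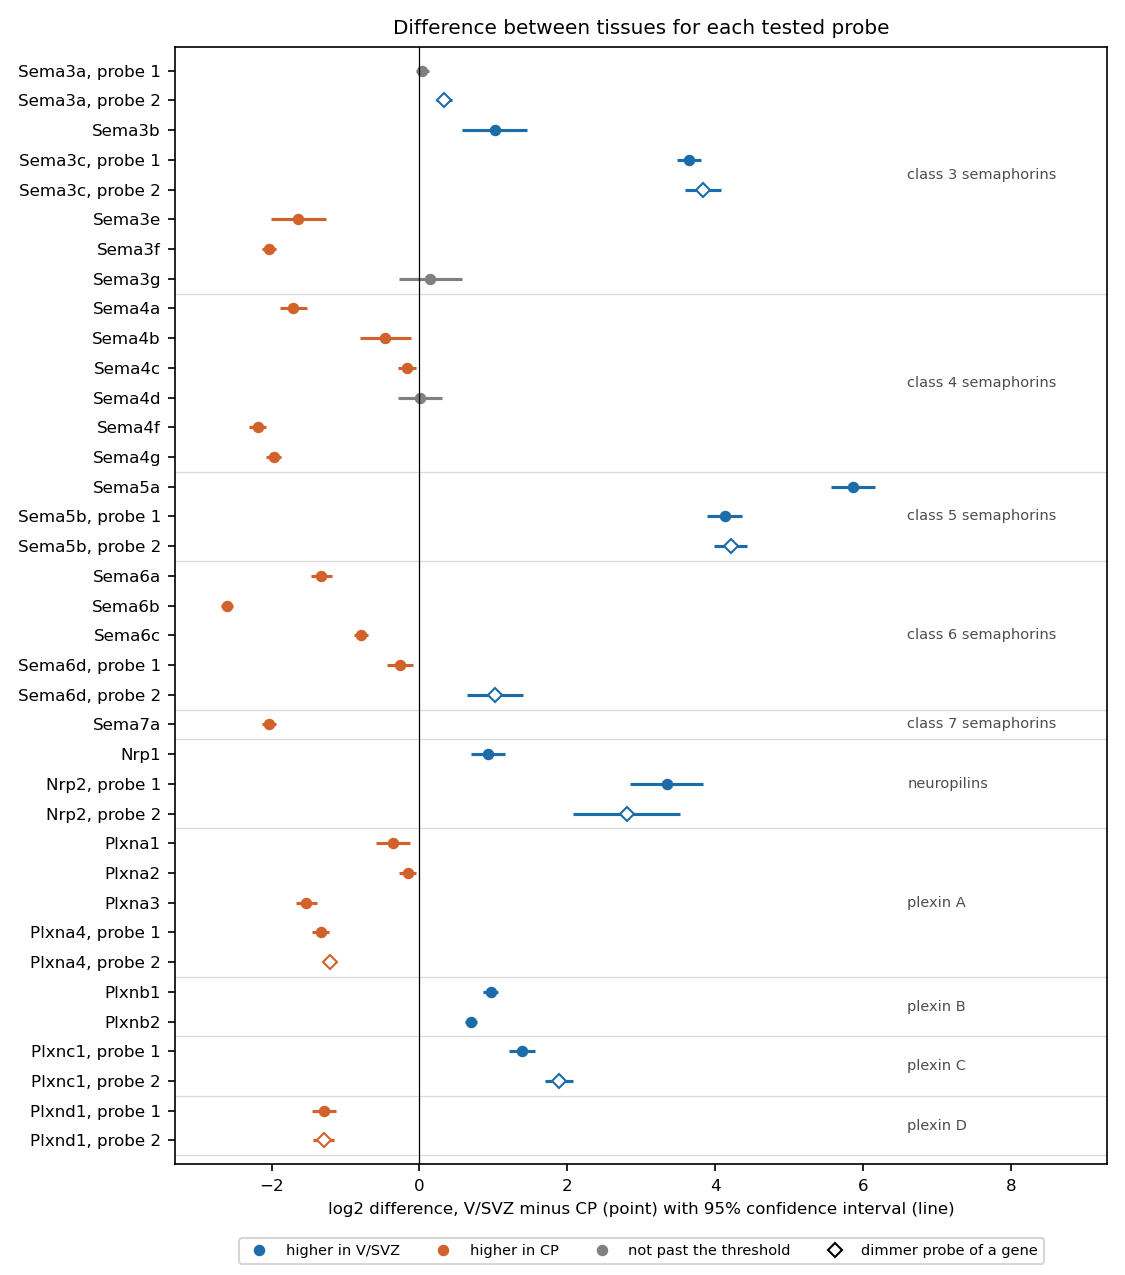
Log2 difference, V/SVZ minus CP, of each of the 37 tested probes with its 95% confidence interval, grouped by class. Blue is higher in V/SVZ, orange higher in CP and grey not past the threshold, and open diamonds are the dimmer probe of a gene. Class 5 lies furthest to the right (5.87 and 4.13), classes 4, 6 and 7 lie at or left of 0 apart from the dimmer Sema6d probe (1.02), and classes 3 and the plexins fall on both sides.

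Both neuropilins were higher in V/SVZ. Nrp2, the coreceptor for Sema3f and Sema3c, had signals of 9543, 8065, 8165 and 6787 in V/SVZ and 715, 648, 1236 and 697 in CP. No CP array came near the V/SVZ range, although CP array 3 stood above the other CP arrays. The log2 difference was 3.35 ± 0.21 SE (10.2-fold, limma adjusted p = 1.64e-06). A second, dimmer Nrp2 probe gave 2.80 ± 0.31 SE with 1 of 4 CP arrays well above background, and 1.18 after normexp. Nrp1, the coreceptor for Sema3a and also a receptor of vascular endothelial growth factor, had signals of 2166, 2177, 1891 and 2017 in V/SVZ and 1176, 938, 1245 and 996 in CP. It was 1.90-fold higher in V/SVZ (0.93 ± 0.10 SE, adjusted p = 4.53e-05), without overlap. The 10 endothelial markers had a median difference of 0.03. Of these, Slc2a1 (0.98), Kdr (0.32) and Cldn5 (0.27) were also higher in V/SVZ, Emcn was higher in CP (-0.24), and 6 were not called. Kdr was not called after normexp, on its dimmer probe (-0.06) or as the mean of both probes (0.13). The part of vessels in the Nrp1 difference was not tested.

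The plexins split by subfamily. All 4 A-type plexins, the partners of neuropilins and of class 6 semaphorins, were called towards CP, but with very different sizes. Plxna3 had signals of 7609, 8096, 7913 and 7088 in V/SVZ and 21984, 23744, 20649 and 22180.4 in CP (CP over V/SVZ 2.88-fold, log2 difference -1.53 ± 0.06 SE, limma adjusted p = 7.82e-08). Plxna4 had signals of 17051, 19263, 17780 and 17377 in V/SVZ and 46849, 46326, 42747 and 44646 in CP, 2.53-fold higher in CP, and 2.31-fold on its dimmer probe. For both genes the tissues were far apart. Plxna1 was 1.28-fold higher in CP (-0.35 ± 0.10 SE, adjusted p = 0.0112), with overlapping ranges of 472 to 644 and 631 to 722 units. Plxna2 was 1.12-fold higher (-0.16 ± 0.05 SE, adjusted p = 0.0182), and -0.23 with spike-in scaling. The call of Plxna2 was lost after median scaling (-0.07), after quantile normalization (-0.11), with array weights (-0.11) and without CP array 2 (-0.14).

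B- and C-type plexins went the other way. Plxnb2, a receptor of class 4 semaphorins known from neural progenitors, had signals of 42490, 40980.1, 40165 and 42494 in V/SVZ and 25782, 24626, 26130 and 25996 in CP. It was 1.62-fold higher in V/SVZ (0.70 ± 0.04 SE, limma adjusted p = 5.29e-07). Plxnb1, the Sema4d receptor, was at 3673 to 3955 and 1891 to 2101 units, 1.95-fold higher in V/SVZ (0.96 ± 0.04 SE). Plxnc1, the plexin of Sema7a, had signals of 2362, 2716, 2673 and 2689 in V/SVZ and 1069, 923, 1082 and 925 in CP. It was 2.61-fold higher in V/SVZ (1.39 ± 0.07 SE, limma adjusted p = 6.24e-07). Its dimmer probe gave 3.70-fold, and 1.75-fold after normexp. Plxnd1, the Sema3e receptor, also prominent in endothelium, was at 2678 to 3133 units in V/SVZ and 6779 to 8068 in CP, 2.45-fold higher in CP (-1.30 ± 0.07 SE, limma adjusted p = 6.51e-07), and its other probe gave 2.46-fold. Of the endothelial markers 1 of 10, Emcn, was higher in CP. After normexp Pecam1 (-0.20), Tek (-0.26) and Tie1 (-0.12) were called towards CP as well. Slc2a1 (1.02), Cldn5 (0.28) and Cdh5 (0.15) were then called towards V/SVZ. The part of vessels in the Plxnd1 difference was not tested.

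Counted by probe, 15 of the 37 tested probes were called towards V/SVZ and 19 towards CP, together 91.9%. Of all probes tested 79.7% were called, 35.2% towards V/SVZ and 44.4% towards CP. In the families 8 genes had 2 tested probes, and in 6 of them both probes were called in the same direction. The exceptions were Sema3a, with only its dimmer probe called, and Sema6d.

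**Figure D3:**
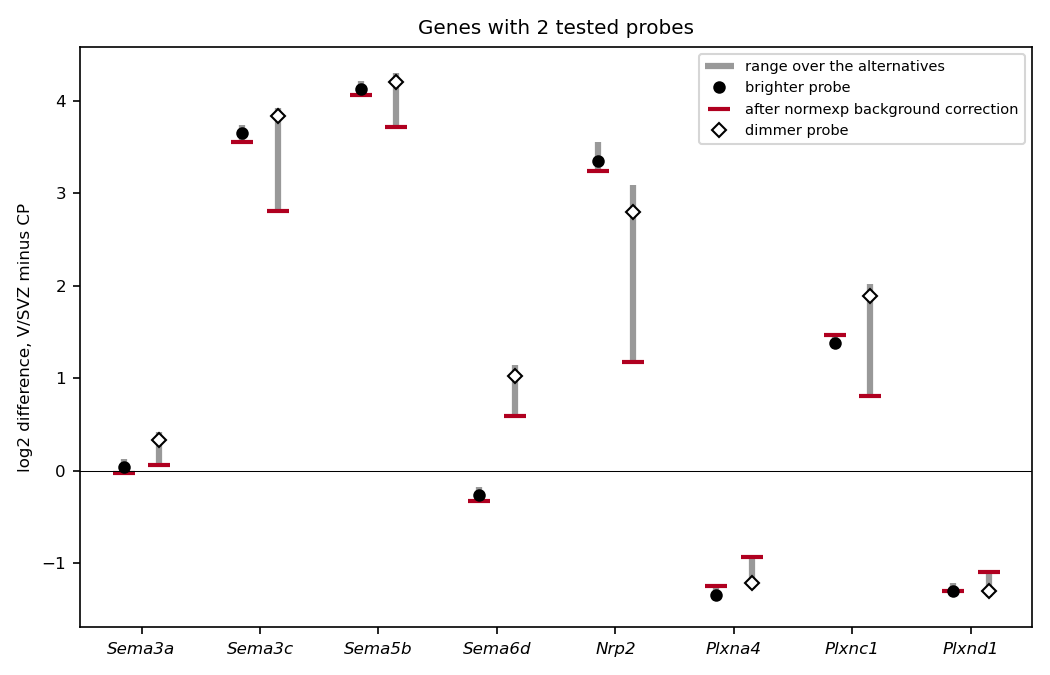
Log2 difference, V/SVZ minus CP, of both probes of the 8 genes that have 2 tested probes. Filled circles are the brighter and open diamonds the dimmer probe, grey bars span the alternatives and red dashes mark normexp background correction. The Sema6d probes lie on opposite sides of 0 (-0.26 and 1.02), and normexp lowers the dimmer probes of Nrp2, Plxnc1 and Sema3c most.

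Ligands and the receptors they are known to use were then read side by side. The pairs are background knowledge and were chosen with the values known, so they are a description. The list is not complete, and the balance of the counts depends on which pairs it holds. Of 16 pairs, 7 had both genes higher in the same tissue, 7 had them higher in opposite tissues, and in 2 (Sema3a with Nrp1 and Sema4d with Plxnb1) the ligand was not called. In V/SVZ, Sema3c (3.65) went with Nrp2 (3.35) and Nrp1 (0.93). In CP, Sema6a (-1.33) and Sema6b (-2.60) went with Plxna4 (-1.34), and Sema3e (-1.64) with Plxnd1 (-1.30). Sema6a with Plxna2 and Sema6d with Plxna1 also fell on the CP side, through the small Plxna2 difference and the Sema6d probe whose partner disagrees. Opposite tissues held Sema3f (-2.04) and its coreceptor Nrp2 (3.35), Sema7a (-2.03) and Plxnc1 (1.39), and the class 5 ligands Sema5a and Sema5b with Plxna3 (-1.53) and Plxna1 (-0.35), their receptors in mouse retina. Sema4c and Plxnb2 (0.70) also lay in opposite tissues, by a Sema4c difference whose call was lost in 2 scalings. Sema4g (-1.97), likewise named above as a ligand of plexin B2, was not among the pairs. It was higher in the opposite tissue to Plxnb2.

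**Figure D4:**
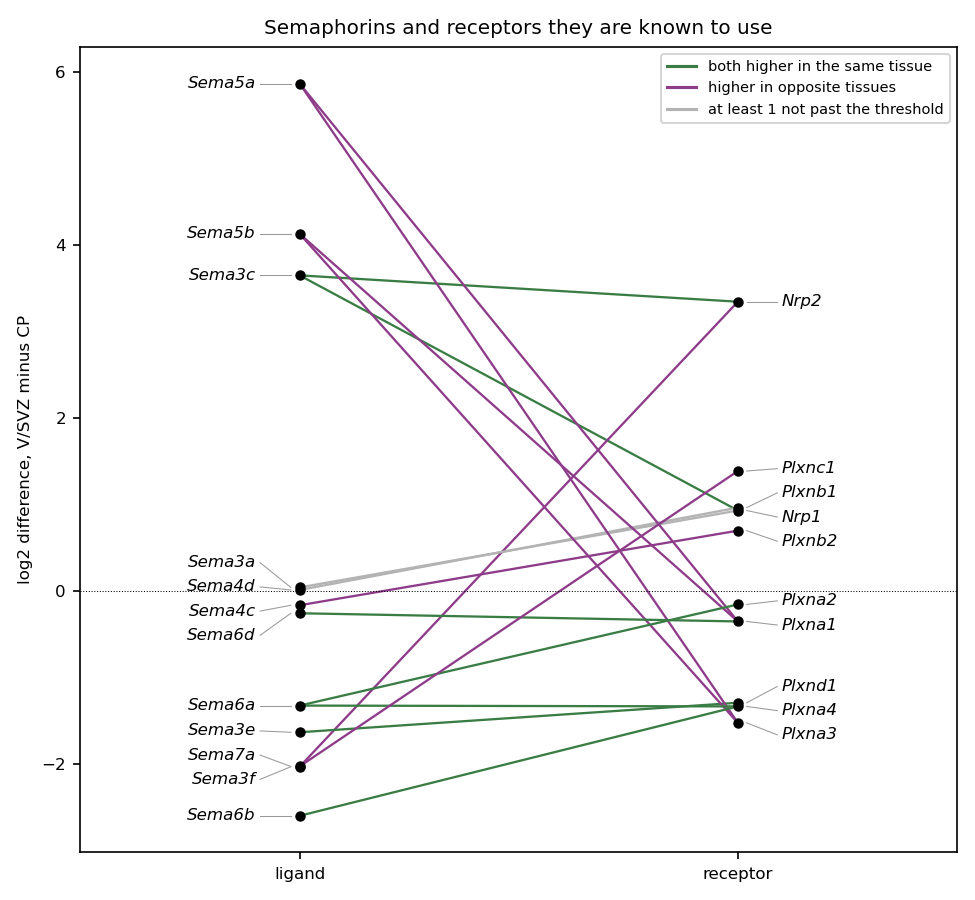
Log2 difference, V/SVZ minus CP, of 12 semaphorins (left) joined to the receptors they are known to use (right). Green lines join genes higher in the same tissue, purple lines genes higher in opposite tissues, and grey lines pairs with a gene not past the threshold. The steepest purple line falls from Sema5a (5.87) to Plxna3 (-1.53), and the steepest that rises runs from Sema3f (-2.04) to Nrp2 (3.35).

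Promoter windows of the members are shown as a description, and their part in the differences was not tested. RefSeq windows on GRCm38.p6, from 250 bases before to 50 bases after a gene's start, were found for 26 of the 31 genes, 37 windows in all. The 5 genes without a window are Sema3b, called towards V/SVZ, and Plxna1, Plxna4, Sema3f and Sema6a, called towards CP. Windows are printed for the 3 largest differences in each direction among genes with a window, the first 3 higher in V/SVZ and the last 3 higher in CP. Capitals mark each GC box (GGGCGG on either strand).
Sema5a: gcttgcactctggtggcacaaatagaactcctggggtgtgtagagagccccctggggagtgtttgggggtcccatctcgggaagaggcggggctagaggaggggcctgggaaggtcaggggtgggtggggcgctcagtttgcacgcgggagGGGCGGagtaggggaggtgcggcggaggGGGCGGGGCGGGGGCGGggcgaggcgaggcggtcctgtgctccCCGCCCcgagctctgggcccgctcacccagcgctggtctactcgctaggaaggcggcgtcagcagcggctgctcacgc
Sema5b: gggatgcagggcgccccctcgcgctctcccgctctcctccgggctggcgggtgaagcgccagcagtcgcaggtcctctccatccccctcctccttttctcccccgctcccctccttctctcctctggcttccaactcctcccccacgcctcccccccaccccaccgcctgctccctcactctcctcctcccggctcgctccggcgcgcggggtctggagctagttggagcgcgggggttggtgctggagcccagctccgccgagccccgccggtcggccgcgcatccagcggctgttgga
Sema3c: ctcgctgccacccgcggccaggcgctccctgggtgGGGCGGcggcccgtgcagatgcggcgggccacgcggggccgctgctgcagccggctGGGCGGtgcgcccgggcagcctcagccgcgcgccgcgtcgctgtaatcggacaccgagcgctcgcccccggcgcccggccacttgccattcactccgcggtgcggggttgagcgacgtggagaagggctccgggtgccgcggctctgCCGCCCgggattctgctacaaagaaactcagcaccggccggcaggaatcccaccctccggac
Sema6b: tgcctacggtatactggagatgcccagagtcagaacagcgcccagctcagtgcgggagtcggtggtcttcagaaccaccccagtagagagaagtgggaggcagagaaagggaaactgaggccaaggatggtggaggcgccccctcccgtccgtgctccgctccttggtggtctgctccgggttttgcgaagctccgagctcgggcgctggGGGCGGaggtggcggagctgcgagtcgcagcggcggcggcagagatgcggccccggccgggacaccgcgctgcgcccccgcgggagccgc
Sema4f: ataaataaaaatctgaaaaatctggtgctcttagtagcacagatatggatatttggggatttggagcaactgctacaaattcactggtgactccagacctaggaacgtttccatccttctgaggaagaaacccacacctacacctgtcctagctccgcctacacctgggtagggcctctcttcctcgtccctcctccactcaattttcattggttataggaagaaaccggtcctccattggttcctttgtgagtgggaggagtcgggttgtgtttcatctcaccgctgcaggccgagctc
Sema7a: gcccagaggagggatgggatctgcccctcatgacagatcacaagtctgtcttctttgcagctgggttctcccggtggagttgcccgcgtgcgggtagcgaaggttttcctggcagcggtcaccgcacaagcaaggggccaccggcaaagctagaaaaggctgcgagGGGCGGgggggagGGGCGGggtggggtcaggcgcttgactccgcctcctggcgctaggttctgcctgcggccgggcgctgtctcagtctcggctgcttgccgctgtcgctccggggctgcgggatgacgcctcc

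The windows lie, on GRCm38.p6, for Sema5a at chr15:32244563-32244862 (plus strand), for Sema5b at chr16:35541112-35541411 (plus strand), for Sema3c at chr5:17574566-17574865 (plus strand), for Sema6b at chr17:56140294-56140593 (minus strand), for Sema4f at chr6:82939720-82940019 (minus strand) and for Sema7a at chr9:57939862-57940161 (plus strand). Sema6b has 2 windows, of which the first listed is shown. The 3 windows of the V/SVZ side hold 23, 27 and 42 CpG dinucleotides and those of the CP side 29, 7 and 23. Over all members the median window had a GC content of 63.7%, against 52.7% over all 32841 windows of the RefSeq set without unread bases. That set covers 27018 genes, tested on these arrays or not. No share over the tested genes was computed, so whether the contrasts with all windows are particular to these families was not tested. The 9 windows on the V/SVZ side, from 8 genes, had a median of 70.7% GC and 27 CpG. The 21 on the CP side, from 13 genes, had 62.7% and 18. Counts of windows below are therefore not counts of genes. A GC box was found in 73.0% of the members' windows and in 35.7% of all windows. By tissue it was in 8 of 9 windows on the V/SVZ side and 17 of 21 on the CP side. No member window held TATAAA, which 13.6% of all windows hold. The letters CCAAT were in 18.9% of member windows (37.4% of all). The E-box CAGCTG was in 16.2% (16.3% of all) and the E-box CAGATG in 5.41% (17.2% of all). TGGGAA, a core bound by the Notch effector Rbpj, was in 21.6% (25.6% of all), in 4 of 9 windows on the V/SVZ side and 2 of 21 on the CP side. All motifs were searched on both strands, none of them contains another, and a match is a description of these letters only.

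Most genes of the wider semaphorin pathway differed between the tissues. Of 79 genes listed as coreceptors, effectors or other ligands, 76 were tested, and 26 were called towards V/SVZ (34.2%, against 35.0% of all genes) and 40 towards CP (52.6%, against 44.6%), with a median log2 difference of -0.26 against -0.09 over all genes. All 5 collapsin response mediator proteins, cytoplasmic relays of Sema3a that bind tubulin, were higher in CP, led by Crmp1 (-1.77), Dpysl3 (-1.24) and Dpysl5 (-1.16). All 5 Mical family genes, whose best-known members oxidise actin downstream of plexins, were also higher in CP, led by Mical2 (-1.79, or -1.04 after normexp), Mical3 (-1.66) and Micall1 (-1.23). The medians were -1.16 for the first list and -1.23 for the second.

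Coreceptors and other receptors divided much as all genes did. Of 14 tested, 5 were higher in V/SVZ (35.7%) and 6 in CP (42.9%), against 35.0% and 44.6% of all genes. The L1 family adhesion molecules L1cam (-2.45) and Chl1 (-2.06), which join neuropilin-1 in neurons, and Cntn2 (-1.69) were higher in CP. Erbb2, a receptor kinase that couples to B-type plexins, was higher in V/SVZ (4.42, or 2.99 after normexp; 1 of 4 CP arrays well above background), as were Trem2 (2.26), known from microglia, and the integrin subunit gene Itgb1 (1.06), a receptor of Sema7a. The 8 microglia markers, given above, ran from -0.81 (Itgam, whose probes disagree) to 2.39 (P2ry12) with a median of 1.87. Their part in the Trem2 difference was not tested. Flt1 (-0.06), Itga1 (0.21) and Cspg4 (-0.12) were not called. Of 5 further neuropilin ligands tested, 4 were higher in V/SVZ: Hgf, not well above background in CP, by at least 1.91-fold (log2 difference 0.92 after normexp), Vegfc at 1.13, Vegfb at 0.33 and Pgf at 0.32 (not called after normexp). Vegfa was not called (-0.12).

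Small GTPases and their regulators fell on both sides, with 10 of 25 higher in V/SVZ and 11 in CP (median -0.09). Rnd2 (3.18), a small GTPase gene that acts in migration of newborn cortical neurons, and Rhod (1.89, or 0.94 after normexp), and the Rac GAP gene Sh3bp1 (1.72, but 0.43 as the mean of its 3 probes, which disagree), were higher in V/SVZ. Arhgap44 (-1.74), Chn1 (-1.34), a Rac GAP that relays Sema3a signals, and the exchange factor gene Trio (-1.29) were higher in CP. Rap1a (-0.31, but called at -0.40 after normexp), Farp2 (-0.09), Arhgef11 (-0.07), an exchange factor bound by B-type plexins, and Rapgef2 (-0.06) were not called. Of 22 kinases and cytoskeletal effectors, 7 were higher in V/SVZ (31.8%) and 13 in CP (59.1%), against 35.0% and 44.6% of all genes. The median of this list was -0.37. The membrane-actin linkers Msn (3.15) and Ezr (2.93) and the talin gene Tln1 (1.76) were higher in V/SVZ. The kinase genes Pak3 (-2.21) and Pak1 (-1.22) and Cdk5r1 (-1.46), the activator of Cdk5, were higher in CP. Pak2 (-0.05) was not called. Fer was not called on its brighter probe (-0.08), but its other probe was called towards CP (-0.87), as was the mean of both (-0.48) and the brighter probe after normexp (-0.16).

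**Figure D5:**
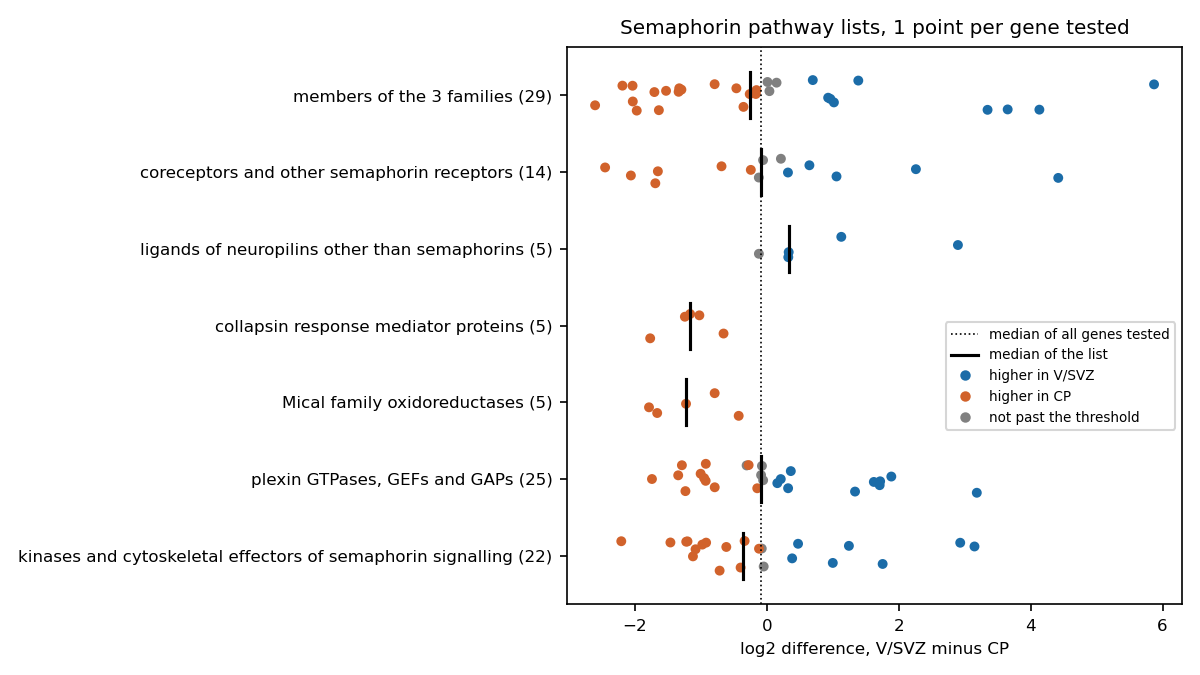
Log2 difference, V/SVZ minus CP, of the 29 tested members and of the genes tested in each of 6 pathway lists, 1 point per gene. Blue is higher in V/SVZ, orange higher in CP and grey not past the threshold, thick lines are list medians and the dotted line is the median of all genes (-0.09). All points of the collapsin response mediator and Mical lists lie left of 0, while the other lists spread to both sides.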

How the data were processed

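Per the labels' protocols, total RNA (100 ng) from 4 V/SVZ and 4 CP samples was amplified for 1-colour hybridisation with Cy3. The deposited intensity values come from Agilent Feature Extraction 10.7.1.1, per the file headers. They comprise each spot's processed signal, corrected for background and for trends across the array, and its median signals. A scaling of arrays against each other is not given in the sources used here. A second deposited file holds log2 values centred by row, with unstated scaling and filter. Each of its columns matched the same-numbered scanner array of the other tissue (r of at least 0.999997) and ran against the array it is named for (r of at most -0.94). Progenitor and neuron markers follow the scanner files, so this table served only as an alternative, with its columns turned. Its column medians ran from -0.03 to 0.02, and it lacks several member probes.

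Groups and replicate numbers came from the titles. Control spots and outlier spots were left out, log2 signals of a probe were averaged, and the array's 75th percentile (2113 to 2566 units) was subtracted. On each array 58.4% to 62.9% of gene probes stood well above background. A probe was tested if it did so on all 4 arrays of a tissue, with values on at least 3 arrays of each. The RefSeq table of GRCm38.p6 named 26761 of 39429 probes. The array headers name another build, so no probe coordinates are given. The promoter windows and the order of genes on chromosomes are those of GRCm38.p6. limma 3.58.1 (R 4.3.3) was fitted on all tested probes, and the procedure was also run on simulated data. These had independent noise and few changed probes, unlike the real arrays, so they cannot show how the fit handles pairing or widespread change. Where no array of a tissue was above background, the fold is a bound ("at least"). For it, the mean of the tissue with signal was divided by a floor, the lowest signal well above background on each array or the dim value if that is higher. The number of arrays limits the precision. Same-numbered samples of both tissues deviated together (correlations of 0.34, 0.31, 0.12 and 0.21 for numbers 1 to 4). Some unlike numbers correlated as highly as numbers 3 (V/SVZ 3 with CP 2, 0.17, and V/SVZ 4 with CP 3, 0.16). The numbers were taken as pairs only in an alternative fit with a replicate block. The values printed come from the fit without the block and ignore such pairing. With the block the limma adjusted p rose from 4.53e-05 to 0.000924 for Nrp1 and from 0.0112 to 0.0318 for Plxna1. For Plxna2 it fell from 0.0182 to 0.0126. The numbers are also positions on the slide, which cannot be told apart from a shared batch. Members, lists, pairs and motifs were chosen with earlier results of these data known. All members are named. From each pathway list the 3 called genes with the largest difference in each direction are named and, where 5 or fewer, those not called. From each marker list it is the called gene with the largest difference, and Pax6, Eomes, Bcl11b and Tbr1 in any case. Kdr, Cldn5, Emcn, Pecam1, Tek, Tie1, Cdh5, Itgam, Aif1 and Pgf were named after their values were seen. Alternatives covered scaling, background correction (normexp on the median signals, offset 50), the filter, how probes of a gene are combined, the replicate block, eBayes settings, array weights, the deposited table and each array left out.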

Additional observations from a re-analysis of the deposited data

Results flagged for a closer look

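In 3 of 77 sets of 4 arrays over the member probes, 1 array stood apart from the others of its tissue by Dixon's ratio (gap over range), and chance flags about 1 set in 20. On CP array 3, Nrp2 read 1236 units on its brighter probe, above the other CP arrays (ratio 0.848). On V/SVZ array 1, Plxnc1 read 2362 on its brighter probe, below the others (ratio 0.886), and Sema7a read 7824, above the others (ratio 0.937). The call of each gene was the same with that array left out.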

How the results depend on the processing

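The counts of members higher in V/SVZ (9) and in CP (17) stayed within 1.5 times under all 20 alternatives, as did those of the pathway genes (26 and 40). Leaving out 1 array gave 9 and 16 to 17 members, and 26 to 27 and 39 to 41 pathway genes. With the replicate block the members' counts were 9 and 17, and it changed no call of a member probe. Median scaling gave 14 members higher in CP and quantile normalization 15. The mean of the probes of a gene gave 11 in V/SVZ and 16 in CP. The turned deposited table, which holds values of the same arrays, gave 8 and 14 of 23 members tested. The filter, brightest-probe, block and eBayes alternatives kept the difference of each probe and could change only its error or which probes were tested. Of the 37 tested probes, 30 kept direction and side of the threshold wherever they were run. Among the tested member probes and these alternatives, sign changes were confined to Sema3a, Sema3g, Sema4d and Sema6d. The brighter Sema3a probe was at -0.031 with spike-in scaling and -0.025 after normexp, and Sema3g at -0.18 after normexp. Sema4d was at -0.060 with spike-in scaling, and leaving out 1 array gave -0.077 (without CP array 4) to 0.113 (without CP array 1), also below 0 without CP array 3 and without V/SVZ array 2 or 4. The mean of both Sema6d probes was 0.38. Except for Sema6d through its disagreeing probes, the cause was not tested. Medians of all genes lay at -0.09 in the reported fit, -0.01 with median scaling and -0.16 with spike-in scaling. Signals near background limit Sema3d, Sema3e, Sema3g, Plxnb3 and the dimmer probes of Nrp2, Plxnc1 and Sema6d.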
